A study of Mus musculus with 6 samples.

Results

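The amino acid transporters of the mouse kidney were followed after repeated cisplatin injury. They were taken as the protein-coding genes of the Slc1, Slc3, Slc6, Slc7, Slc36, Slc38 and Slc43 families, chosen by their symbol in the GENCODE annotation, and numbered 61 of the 56691 genes in the count tables. All mice were C57BL/6 males, 9 weeks old at the start. The 3 control mice received saline and the 3 treated mice received 4 intraperitoneal injections of 8 mg/kg cisplatin, a platinum drug that injures the renal tubule, and the kidneys were collected at week 7 as a model of chronic kidney disease. Total RNA of each kidney gave 1 stranded library, so every value is that of a whole kidney from 1 mouse.

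Amino acids filtered at the glomerulus are taken back almost entirely by the proximal tubule. Carriers of the brush border, the membrane facing the urine, bring them into the cell with sodium or by exchange, and exchangers and uniporters of the basolateral membrane pass them on to the blood. Several Slc7 light chains work only when bound to a heavy chain, Slc3a1 (rBAT) at the brush border or Slc3a2 (4F2hc) elsewhere, and inherited loss of Slc3a1 or Slc7a9 causes cystinuria in man while loss of SLC6A19 causes Hartnup disorder. The remaining members feed cells with amino acids, hold osmolytes, take up transmitters in nerve tissue or sense amino acids at the lysosome.

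Counted read pairs numbered 21891855 to 26627554 per library. Levels are given in CPM, the counts divided by the size of the library, after TMM scaling (factors of 0.844 to 0.894 for control mice, 1.05 to 1.26 for treated mice). Libraries of treated mice differed from each other more than those of control mice did. The chi-square per gene between libraries was 13.2 to 40.5 for the former and 4.96 to 7.19 for the latter. It was taken on counts without TMM scaling, with expected values from the library totals, so differences in scaling enter it. All 16 proximal tubule markers had at least 71.2 CPM in every library, while the 5 brain markers together reached 0.195 to 0.620 CPM and none of them passed the count filter.

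After cisplatin the carriers had moved in both directions, with more rises than falls. Of 61 members, 44 had enough counts for the test, and the median of their log2 fold changes was 0.15, against 0.05 over all 15662 genes tested. By edgeR's quasi-likelihood test at an adjusted p under 0.05, 10 transporters (22.7%) were lower after cisplatin, and 22.8% of all tested genes were. Another 16 transporters (36.4%) were higher, beside 24.5% of all tested genes, and 18 did not pass the test. In either direction 26 of 44 transporters were called, beside 47.4% of all tested genes. A fall of at least 2-fold was found for 3 transporters (5.64% of all genes) and a rise of that size for 8 (9.78% of all genes). The 3 cisplatin libraries lay wholly above or below the 3 control libraries for 29 transporters (65.9%), and for 57.8% of all genes, so the share of non-overlapping transporters was close to that of the whole table. The 16 rises, the 8 of at least 2-fold and the 29 include Slc7a15, which passed the count filter only through its counts after cisplatin. When libraries were scaled to their totals in place of TMM factors, the median of all genes moved up to 0.48 and the split became 6 lower and 24 higher.

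Calls were also counted by family, beside 22.8% lower and 24.5% higher over all tested genes. Of 11 tested Slc7 members, 7 rose (63.6%, Slc7a15 among them) and 1 fell (9.09%), with a median log2 fold change of 1.14. Of 11 tested Slc6 members, 4 fell (36.4%) and 2 rose (18.2%). The smaller families hold too few tested genes for their shares to be read. The 9 tested Slc38 carriers held 3 that rose and 1 that fell, the 5 tested Slc1 carriers 1 that rose and 2 that fell, the 3 tested Slc36 carriers 1 of each, the 3 Slc43 carriers 2 that rose, and the 2 Slc3 heavy chains 1 that fell. These counts hold for TMM scaling, and the falls of Slc3a1, Slc6a19, Slc6a9 and Slc38a9 were not called with library totals. By role, the luminal carriers of the nephron gave 4 falls (57.1%) and no rise among 7 tested. Members grouped as basolateral gave 3 rises (42.9%) and no fall among 7.

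**Figure D1:**
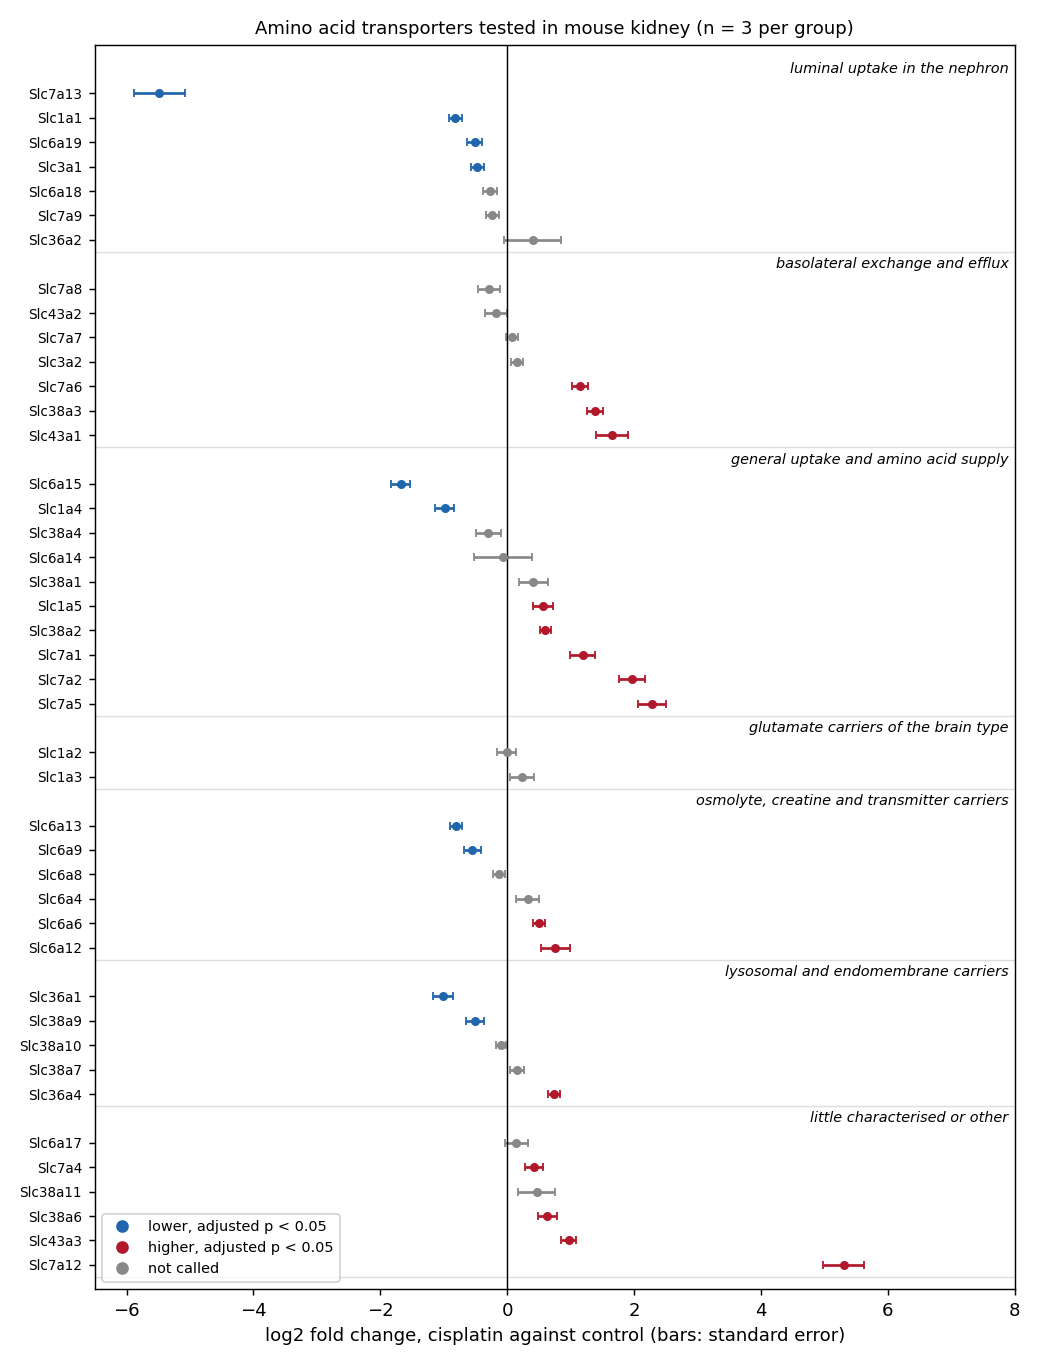
Log2 fold change of cisplatin against control (horizontal axis, with standard error bars) for each tested amino acid transporter except Slc7a15, which had no count in control kidneys; colours mark genes called lower, called higher or not called by edgeR. Slc7a13 stands alone at -5.48 and Slc7a12 at 5.30, and the other transporters lie between -1.68 and 2.28.

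At the brush border the largest fall was that of Slc7a13 (chr4:19818725-19842218 of GRCm39, plus strand), a cystine and acidic amino acid exchanger that pairs with Slc3a1 in the last part of the proximal tubule and is known to be more abundant in male than in female mouse kidney. Its level was 716, 703 and 662 CPM in control kidneys and 9.37, 9.25 and 28.4 CPM after cisplatin. The groups stood far apart, and the library of the third cisplatin mouse kept about 3 times as much as the others. The fall was 44.8-fold (log2 fold change -5.48 ± 0.400 SE, edgeR adjusted p = 2.3e-06), and it was 76.1-fold without the third cisplatin library.

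The heavy chain Slc3a1 (chr17:85335804-85374794, plus strand) fell far less. It had 504, 505 and 477 CPM in control and 313, 365 and 395 CPM in cisplatin kidneys, with no overlap (log2 fold change -0.47 ± 0.107 SE, edgeR adjusted p = 0.0044). Slc7a9, the light chain that carries cystine and dibasic amino acids with Slc3a1 in the early proximal tubule, had 54.7, 55.4 and 53.4 CPM in control and 41.6, 44.4 and 53.1 CPM in cisplatin kidneys. Every cisplatin library was below every control library, the third by little, and the difference did not pass the test (log2 fold change -0.23 ± 0.0997 SE, edgeR adjusted p = 0.077). Without the third cisplatin library it did (log2 fold change -0.37, edgeR adjusted p = 0.0018). With library totals neither gene was called, and the log2 fold change was -0.05 for Slc3a1 (edgeR adjusted p = 0.568) and 0.18 for Slc7a9.

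Light and heavy chains were also compared within each library, per kilobase of exon, a ratio that no scaling of the library can move. Slc7a13 and Slc7a9 together stood at 3.78, 3.71 and 3.70 counts per count of Slc3a1 in control kidneys and at 0.319, 0.287 and 0.428 after cisplatin. The control mean of 3.73 ± 0.0453 (SD, n = 3) was thus 10.8 times the cisplatin mean of 0.344 ± 0.0739 (SD, n = 3). Nearly the whole difference lay in Slc7a13, since Slc7a9 per Slc3a1 was 0.201 ± 0.00310 in control and 0.237 ± 0.0127 in cisplatin kidneys (SD, n = 3), slightly higher after the drug. All of these groups were apart, and the two-sided exact permutation test gave p = 0.1, the smallest that 3 mice against 3 can give.

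**Figure D2:**
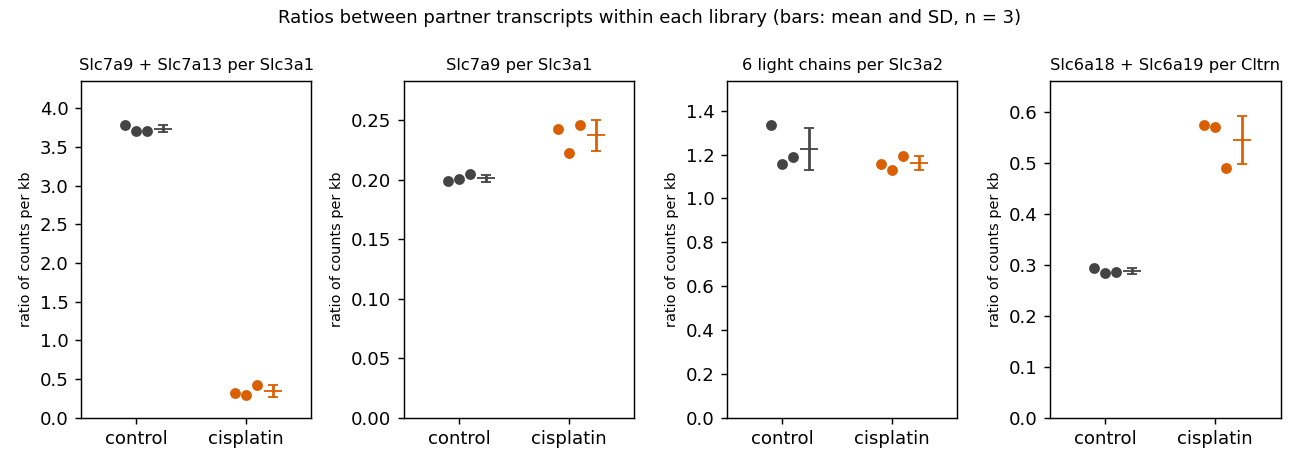
Ratios of counts per kilobase of exon between partner transcripts in each library (points), with mean and SD bars for control (grey, n = 3) and cisplatin (orange, n = 3). The light chains of Slc3a1 stand at 3.73 per Slc3a1 in control and 0.344 after cisplatin, those of Slc3a2 overlap between the groups, and Slc6a18 plus Slc6a19 per Cltrn stand at 0.288 in control and 0.546 after cisplatin.

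The neutral amino acid carrier Slc6a19 (B0AT1; chr13:73827860-73852984, minus strand) fell as well. Control kidneys had 341, 336 and 366 CPM and cisplatin kidneys 212, 228 and 289 CPM (log2 fold change -0.52 ± 0.121 SE, edgeR adjusted p = 0.0052). The call was lost with library totals (log2 fold change -0.10, edgeR adjusted p = 0.294). Its neighbour Slc6a18 (B0AT3), a glycine and neutral amino acid carrier that lies 1714 bases away on the same strand, had 369, 404 and 401 CPM in control and 291, 319.7 and 360.5 CPM in cisplatin kidneys. These groups did not overlap either, and the test was just missed (log2 fold change -0.27 ± 0.105 SE, edgeR adjusted p = 0.053). Slc6a18 was called lower under 5 of 14 alternatives, DESeq2 (adjusted p = 0.020) and leaving out the third cisplatin library (edgeR adjusted p = 0.0040) among them, whereas library totals gave a log2 fold change of 0.15.

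Both carriers need collectrin, the product of Cltrn, to reach the kidney brush border. Cltrn fell from 1095 ± 59.1 to 452 ± 102 CPM (SD, n = 3; log2 fold change -1.28, edgeR adjusted p = 5.9e-05), a larger fold than either carrier. Slc6a18 and Slc6a19 together came to 0.294, 0.285 and 0.286 per Cltrn in control libraries and to 0.575, 0.571 and 0.490 in cisplatin libraries. The carriers therefore stood at 1.89 times their control level per Cltrn transcript, with no overlap (two-sided exact permutation test, p = 0.1).

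The glutamate and aspartate carrier Slc1a1 (EAAC1; chr19:28812449-28891360, plus strand) was the clearest fall after Slc7a13 at the brush border. It had 231, 224 and 239 CPM in control and 117, 144 and 132 CPM in cisplatin kidneys, a 1.76-fold fall (log2 fold change -0.82 ± 0.0986 SE, edgeR adjusted p = 7.0e-05). The call held under every scaling, library totals included (log2 fold change -0.39, edgeR adjusted p = 0.0062). The proline and glycine carrier Slc36a2 was near the detection limit, with 0.144 to 0.654 CPM over the 6 libraries and overlapping groups.

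The luminal group was summed to see how much of the difference lay in a single gene. The 7 carriers together came to 2214 ± 15.1 CPM in control and 1118 ± 137 CPM in cisplatin kidneys (SD, n = 3), and the 61 members to 3289 ± 20.9 and 2388 ± 48.9 CPM. Without Slc7a13 the sum over members was 2596 ± 35.8 CPM in control and 2372 ± 44.0 CPM in cisplatin kidneys. Counted per kilobase, Slc7a13 made up 42.4% ± 1.30 of the summed transporter level in control kidneys and 1.70% ± 1.10 after cisplatin (SD, n = 3).

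Other proximal tubule genes fell beside these carriers, and 22.8% of all tested genes were lower. Of 16 proximal tubule markers, 15 were lower and the median log2 fold change was -0.96, with Slc22a6 (organic anion uptake, -2.14), Cyp2e1 (-3.16), Slc5a2 (glucose uptake, -1.05) and Slc34a1 (phosphate uptake, -1.42) in front. Their summed level was 13888 to 15740 CPM in control and 6488 to 6662 CPM in cisplatin libraries. Against the endocytic receptor Lrp2, another brush border gene, Slc3a1 was higher after cisplatin, at 0.383, 0.356 and 0.389 per Lrp2 in control and 0.565, 0.764 and 0.880 in cisplatin libraries. Slc7a13 was the opposite, with a mean of 1.33 ± 0.0685 per Lrp2 in control and 0.0837 ± 0.0659 in cisplatin libraries (SD, n = 3; exact permutation test, p = 0.1 for both). Lrp2 itself fell by more than the median marker (log2 fold change -1.42), so the result for Slc3a1 depends on the marker chosen. Aqp1 (-0.04) and Slc5a12 (-0.38) moved less than Slc3a1 (-0.47), and the other listed markers fell by more. In whole kidney RNA, fewer proximal tubule cells and less RNA per cell cannot be told apart. The 7 listed genes that are higher in male mouse kidney, among them Slco1a1, Cyp7b1, Acsm3 and Odc1, all fell. Their summed level was 26265 to 28041 CPM in control and 585 to 977 CPM in cisplatin libraries, and their part in the fall of Slc7a13 was not tested.

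Of 7 members grouped under basolateral exchange and efflux, 4 were not called and 3 rose by more than 2-fold (9.78% of all tested genes). The rises were those of Slc38a3, which carries glutamine into the cell, Slc7a6 and Slc43a1. Slc7a7, the y+LAT1 light chain that exports dibasic amino acids, had 95.8, 91.9 and 99.4 CPM in control and 88.6, 107 and 107 CPM in cisplatin kidneys. Slc7a8 (LAT2), the exchanger for neutral amino acids, had 50.4, 57.2 and 55.3 CPM in control and 58.6, 41.8 and 32.4 CPM in cisplatin kidneys. Both overlapped between groups, and neither passed the test (log2 fold change 0.08 ± 0.0970 SE and -0.29 ± 0.173 SE, edgeR adjusted p = 0.53 and 0.19). Slc7a8 varied widely among the treated mice, and it was called lower without the first cisplatin library (log2 fold change -0.54, edgeR adjusted p = 0.0030) and without the count filter (edgeR adjusted p = 0.019). With library totals Slc7a7 was called higher (log2 fold change 0.50, edgeR adjusted p = 0.0012).

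Their common heavy chain Slc3a2 had 77.1, 89.3 and 90.7 CPM in control and 94.5, 101 and 90.7 CPM in cisplatin kidneys. The difference was within the spread of the libraries (log2 fold change 0.15 ± 0.0931 SE, edgeR adjusted p = 0.20), although with library totals it was called higher (log2 fold change 0.59, edgeR adjusted p = 0.0017). The 6 light chains of Slc3a2 summed to 1.23 ± 0.0955 per Slc3a2 in control and to 1.16 ± 0.0328 in cisplatin kidneys (SD, n = 3), with overlap and p = 0.5 by the exact permutation test. The main partners Slc7a7 and Slc7a8 alone summed to 1.18 ± 0.0896 per Slc3a2 in control and to 1.05 ± 0.0331 after cisplatin (SD, n = 3), with no overlap and p = 0.1 by the exact permutation test, the smallest possible. Slc43a2 (LAT4), a uniporter for large neutral amino acids, ranged from 59.9 to 109.6 CPM after cisplatin and from 96.4 to 106 CPM in control, and was not called.

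Slc38a3 (SNAT3; chr9:107527815-107547018, minus strand) was the most abundant basolateral carrier that rose. It brings glutamine into proximal tubule cells for ammonia production and is known to be raised in acidosis. Control kidneys had 15.6, 22.3 and 21.8 CPM and cisplatin kidneys 52.6, 53.9 and 48.6 CPM. The 3 treated mice were close together and 2.60-fold above control (log2 fold change 1.38 ± 0.129 SE, edgeR adjusted p = 1.2e-05).

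A pair of less abundant members of the basolateral group rose too, and their place in the kidney was not examined here. Slc7a6 (y+LAT2), a light chain that exchanges dibasic for neutral amino acids, went from 4.08, 3.75 and 3.75 CPM to 9.19, 7.91 and 8.51 CPM (log2 fold change 1.14 ± 0.126 SE, edgeR adjusted p = 3.8e-05). Slc43a1 (LAT3), a uniporter for large neutral amino acids, went from 0.546, 1.17 and 1.20 CPM to 2.996, 3.08 and 3.01 CPM (log2 fold change 1.66 ± 0.252 SE, edgeR adjusted p = 0.00035). No cisplatin library reached down to the control range in either gene. The sum of the 7 members of the basolateral group was 360.5 ± 19.2 CPM in control and 393 ± 36.8 CPM after cisplatin (SD, n = 3).

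**Figure D3:**
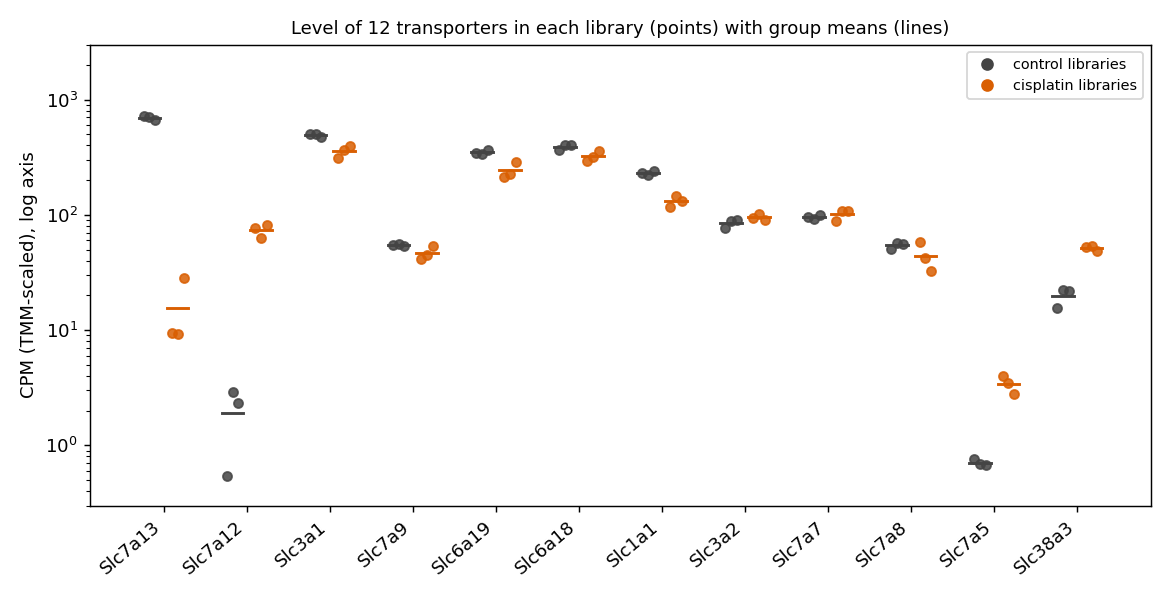
Level in CPM (log axis) of 12 transporters in each control (grey) and cisplatin (orange) library, with group means as lines. Slc7a13 and Slc7a12 trade places, Slc3a1, Slc6a19 and Slc1a1 shift down by less than 2-fold, Slc3a2 and Slc7a7 overlap, and Slc7a5 and Slc38a3 lie higher after cisplatin.

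Of the carriers that supply cells in general, 5 of 10 tested rose and 2 fell, beside 24.5% higher and 22.8% lower over all tested genes. Both tested carriers of cationic amino acids rose. Slc7a2 (CAT2), which brings in arginine and is known to be induced in inflammation, had 5.80, 4.63 and 5.10 CPM in control and 27.4, 16.3 and 17.2 CPM in cisplatin kidneys (log2 fold change 1.97 ± 0.202 SE, edgeR adjusted p = 2.3e-05). Slc7a1 (CAT1), the widespread arginine and lysine carrier, had 6.10, 6.28 and 5.05 CPM in control and 16.0, 14.5 and 9.07 CPM in cisplatin kidneys (log2 fold change 1.19 ± 0.198 SE, edgeR adjusted p = 0.00061). In both genes every treated mouse was above every control mouse, and the spread among treated mice was several times that among controls.

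Slc7a5 (LAT1; chr8:122607884-122634433, minus strand), the light chain that imports leucine and other large neutral amino acids into growing cells, rose from a low level. It had 0.757, 0.682 and 0.673 CPM in control and 4.03, 3.45 and 2.79 CPM in cisplatin kidneys, a 4.85-fold rise (log2 fold change 2.28 ± 0.221 SE, edgeR adjusted p = 1.6e-05). Even so it made up little of the Slc3a2 partners, with 0.0101 ± 0.00161 per Slc3a2 in control and 0.0436 ± 0.00740 after cisplatin (SD, n = 3; exact permutation test, p = 0.1). Slc1a5 (ASCT2), the glutamine exchanger often found beside it, had 11.2, 11.6 and 9.95 CPM in control and 18.5, 17.6 and 12.1 CPM in cisplatin kidneys. The third cisplatin library was close to control, and the rise was 1.48-fold (log2 fold change 0.56 ± 0.154 SE, edgeR adjusted p = 0.012), a call that was lost without the third control library (edgeR adjusted p = 0.052) and without the second cisplatin library (edgeR adjusted p = 0.055). Slc38a2 (SNAT2), the carrier that cells raise when amino acids are scarce, was 1.51-fold higher (log2 fold change 0.60, edgeR adjusted p = 0.00024).

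Among the falls of this group, Slc6a15 (B0AT2), a carrier for branched-chain amino acids and proline, was the larger. Its level was 29.3, 22.1 and 25.5 CPM in control and 7.20, 6.97 and 9.99 CPM in cisplatin kidneys (log2 fold change -1.68 ± 0.154 SE, edgeR adjusted p = 1.1e-05). Slc1a4 (ASCT1), an exchanger for serine, alanine and cysteine, was 1.98-fold lower (log2 fold change -0.99, edgeR adjusted p = 0.00038). Slc38a1, Slc38a4 and Slc6a14 were not called, with log2 fold changes of 0.41, -0.30 and -0.07. With library totals (edgeR adjusted p = 0.032) and without the third cisplatin library (edgeR adjusted p = 0.023) Slc38a1 was called higher, and without that library Slc38a4 was called lower (edgeR adjusted p = 0.027). The sum of the whole group was 129.9 ± 6.57 CPM in control and 162 ± 17.3 CPM after cisplatin (SD, n = 3).

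The cystine and glutamate exchanger Slc7a11 (xCT), which supplies cysteine for glutathione, was rare in these kidneys. It had 3, 2 and 5 counts in the control libraries and 21, 28 and 8 counts in the cisplatin libraries, or 57 counts in all after cisplatin and 10 in control. All treated mice had more counts than any control mouse, but the gene did not pass the count filter. Fitted without a filter it was higher (log2 fold change 2.11 ± 0.486 SE, edgeR adjusted p = 1.0e-04). Slc7a3 (CAT3) likewise had 24 counts in all after cisplatin and 3 in control.

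Some of these carriers are known targets of Atf4, a transcription factor that acts in amino acid starvation through the amino acid response element. The promoters of Slc7a11, a textbook case, and of Slc1a4, the only called member with a match, are shown from 250 bases before to 50 bases after the start of the transcript (RefSeq, GRCm38.p6), with TGATGNAA or its reverse complement in capitals.
Slc7a11, chr3:50443564-50443863, minus strand: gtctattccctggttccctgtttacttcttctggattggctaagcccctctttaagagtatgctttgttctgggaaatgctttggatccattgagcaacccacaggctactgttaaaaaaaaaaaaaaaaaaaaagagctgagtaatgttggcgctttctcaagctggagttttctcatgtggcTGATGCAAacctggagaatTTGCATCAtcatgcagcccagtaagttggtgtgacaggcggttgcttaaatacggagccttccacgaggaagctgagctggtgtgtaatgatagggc
Slc1a4, chr11:20332664-20332963, minus strand: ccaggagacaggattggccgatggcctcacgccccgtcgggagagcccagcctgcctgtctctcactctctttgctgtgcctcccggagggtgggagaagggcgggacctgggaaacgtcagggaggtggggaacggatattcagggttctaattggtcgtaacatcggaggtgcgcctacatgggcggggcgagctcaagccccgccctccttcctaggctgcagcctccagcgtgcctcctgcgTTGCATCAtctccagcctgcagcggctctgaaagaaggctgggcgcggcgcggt

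RefSeq promoters were matched for 43 of 61 members, with 64 promoters in all. The letters TGATGNAA, searched on both strands, were found in 5 of these 64 promoters (7.81%) and in 3.97% of 32851 promoters of all genes. They were in none of the 15 promoters of members called higher and in 1 of 12 of members called lower, that of Slc1a4, which fell. The antioxidant response element, searched as TGACNNNGC on both strands, was found in 11 of 64 member promoters (17.2%) and in 12.4% of all promoters. It was in 4 of 12 promoters of members called lower, in 5 of 15 of members called higher and in 0 of 23 of members not called. These are promoters and not genes, as Slc6a9 and Slc7a6 each entered with more than 1 promoter matching the antioxidant element. Slc7a7, which was not called, likewise entered with more than 1 promoter matching TGATGNAA. The other matches to TGATGNAA were in Slc7a11, Slc1a4 and Slc6a21, the last a gene without counts. A match is a description of these letters in this window only, and Slc7a13 and Slc7a12 had no promoter entry.

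Part of the list of starvation response genes was raised. Of 15 tested genes of the list, 8 were higher and 2 lower, with a median log2 fold change of 0.61. Phgdh, the first enzyme of serine synthesis, rose (log2 fold change 1.65, edgeR adjusted p = 8.1e-06), as did Stc2 (1.87), Ddit4 (1.59) and Eif4ebp1 (0.94), while Psat1 (-0.45), the next enzyme of serine synthesis, and Vldlr (-0.37) fell. Atf4 mRNA was not called (log2 fold change 0.12, edgeR adjusted p = 0.28). Ddit3 (0.21), Trib3 (0.46), Atf5 (0.38) and Eif2ak4 (0.23) were not called either. Chac1 was not tested, and Asns was called higher (0.66) although its groups overlapped. Sesn2 (0.61), Nupr1 (0.65) and Cebpb (0.72) were also called higher. A starvation response as such was not tested. The list is not specific to the nephron. Of 10 macrophage and lymphocyte markers, 7 were tested and all 7 rose in the same libraries, beside 24.5% of all tested genes. They were led by C1qb, Lyz2, C1qa and C1qc. The summed level of the 10 was 62.0 to 77.3 CPM in control and 223 to 264 CPM after cisplatin. The lymphocyte markers Cd3e, Cd79a and Ms4a1 were not tested. Their group means were 0.0774 to 0.367 CPM with overlapping groups, so no rise of lymphocyte markers was shown. The fibroblast markers rose in 6 of 7, beside 24.5% of all tested genes, led by Dcn, Pdgfra, Col3a1 and Col1a1. Their summed level was 236 to 285 CPM in control and 443 to 709 CPM after cisplatin, and no marker of either list was at 0. Their part in the rise of Slc7a1, Slc7a2, Slc7a5 and Slc1a5 was not tested.

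The glutamate carriers of nerve tissue stayed low. Slc1a2 (GLT-1) had 5.76 to 7.99 CPM and Slc1a3 (GLAST) 1.51 to 2.31 CPM over all libraries, with overlapping groups and no call. With library totals Slc1a3 was called higher (log2 fold change 0.66, edgeR adjusted p = 0.018). Slc1a6 and Slc1a7 were not tested, with at most 2 counts in any library.

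Carriers of osmolytes, creatine and transmitters moved in both directions, with 2 rises and 2 falls among 6 tested of 12. Over all tested genes 24.5% rose and 22.8% fell. The taurine carrier Slc6a6 (chr6:91660573-91736047, plus strand), which serves cell volume control, was the most abundant of them. It had 209, 223 and 217 CPM in control and 320.0, 325 and 277 CPM in cisplatin kidneys, a 1.42-fold rise with no overlap (log2 fold change 0.50 ± 0.0962 SE, edgeR adjusted p = 0.0015). The creatine carrier Slc6a8 had 67.4, 64.4 and 67.7 CPM in control and 68.1, 60.3 and 54.2 CPM in cisplatin kidneys, and was not called (log2 fold change -0.13 ± 0.0961 SE, edgeR adjusted p = 0.30). Without the first cisplatin library it was called lower (edgeR adjusted p = 0.047), and with library totals its log2 fold change was 0.31, so its direction depended on the scaling.

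Slc6a13 and Slc6a12 lie 3913 bases apart on chromosome 6, on the same strand, and went opposite ways. Slc6a13 (GAT2), which carries GABA and taurine in the proximal tubule, was 1.75-fold lower (log2 fold change -0.81, edgeR adjusted p = 4.3e-05). Slc6a12 (BGT1), the betaine carrier of the renal medulla that is induced by high salt, was 1.69-fold higher (log2 fold change 0.76, edgeR adjusted p = 0.020) at a low level of 1.83 to 3.05 CPM after cisplatin. That call was lost without any single control library and without the third cisplatin library (edgeR adjusted p = 0.051 to 0.069). The glycine carrier Slc6a9 (GlyT1) was lower (log2 fold change -0.55, edgeR adjusted p = 0.0064) and the serotonin carrier Slc6a4 was not called (0.32). With library totals Slc6a9 was not called (edgeR adjusted p = 0.607) and Slc6a4 was called higher (log2 fold change 0.74, edgeR adjusted p = 0.0050).

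At the lysosome the carriers diverged within a family. Slc36a1 (PAT1), which lets amino acids out of the lysosome with protons, had 27.3, 28.0 and 26.3 CPM in control and 16.9, 13.5 and 9.73 CPM in cisplatin kidneys (log2 fold change -1.01 ± 0.161 SE, edgeR adjusted p = 0.00046). Slc36a4 (PAT4) rose 1.67-fold (log2 fold change 0.74, edgeR adjusted p = 1.0e-04). Slc38a9, the arginine sensor that signals to mTORC1, was lower (log2 fold change -0.50, edgeR adjusted p = 0.014), a call lost without the third control library (edgeR adjusted p = 0.060), without the second cisplatin library (0.064) and with library totals (0.789). Slc38a10 (-0.09) and the glutamine exporter Slc38a7 (0.15) were not called, but with library totals both were called higher (log2 fold change 0.33 and 0.58, edgeR adjusted p = 0.012 and 0.0075).

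Among the little characterised members, the largest rise among genes with counts in both groups was that of Slc7a12 (chr3:14545757-14570890, plus strand). It encodes Asc-2, a light chain whose heavy chain partner is not known and which is known to be more abundant in female than in male mouse kidney. Its level was 0.546, 2.87 and 2.31 CPM in control and 76.3, 63.0 and 81.7 CPM in cisplatin kidneys. All treated mice were far above all control mice, and the rise was 39.4-fold (log2 fold change 5.30 ± 0.317 SE, edgeR adjusted p = 5.7e-07). Per kilobase it made up 0.144% ± 0.0910 of the summed transporter level in control and 10.04% ± 1.18 after cisplatin (SD, n = 3).

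Slc7a12 and Slc7a13 thus exchanged their order. Slc7a13 stood at 1065, 199 and 233 counts per count of Slc7a12, both per kilobase, in the control libraries and at 0.0998, 0.119 and 0.283 in the cisplatin libraries. The ratio was above 1 in every control mouse and below 1 in every treated mouse. No counts were found on the opposite strand of Slc7a12 in any library. All 6 mice were male, and the fall of the 7 male-high genes given above occurred in the same libraries, but its part in this exchange was not tested.

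Slc7a15 had no count in the 3 control libraries and 16, 19 and 9 counts in the cisplatin libraries. Its mean of 0.527 CPM after cisplatin was at least 11.4-fold higher than the level that a total of 3 counts over the control group would give, and it passed the count filter only through its counts after cisplatin. Slc43a3, which carries purine bases, was 1.96-fold higher (log2 fold change 0.97, edgeR adjusted p = 8.4e-05) and lies 68546 bases from Slc43a1, which rose as well. Slc38a6 (0.63, edgeR adjusted p = 0.0054) and Slc7a4 (0.42, edgeR adjusted p = 0.031) were also higher. The call of Slc7a4 was lost with DESeq2 (adjusted p = 0.10) and without any 1 of 5 libraries (edgeR adjusted p = 0.057 to 0.11). Slc6a17 (0.14) and Slc38a11 (0.46) were not called, and Slc38a11 was called higher with library totals (log2 fold change 0.89, edgeR adjusted p = 0.027).

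The order of levels per kilobase of exon changed at the top. In control kidneys Slc7a13 led with 324 ± 13.2 CPM per kilobase, followed by Slc3a1 (91.7 ± 2.93), Slc6a18 (88.5 ± 4.41), Slc6a19 (69.4 ± 3.14) and Slc1a1 (27.0 ± 0.867; SD, n = 3). Of these neighbours, only Slc3a1 and Slc6a18 differed by less than the sum of their SDs. After cisplatin Slc6a18 came first (73.2 ± 7.92), then Slc3a1 (66.2 ± 7.67), Slc6a19 (48.5 ± 8.11), Slc7a12 (42.3 ± 5.51) and Slc6a6 (25.2 ± 2.16), and of these the neighbouring pairs Slc6a18 and Slc3a1, and Slc6a19 and Slc7a12, differed by less than that sum. Slc7a13 stood at rank 13 after cisplatin, and Slc7a12 at rank 25 in control and rank 4 after cisplatin.

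**Figure D4:**
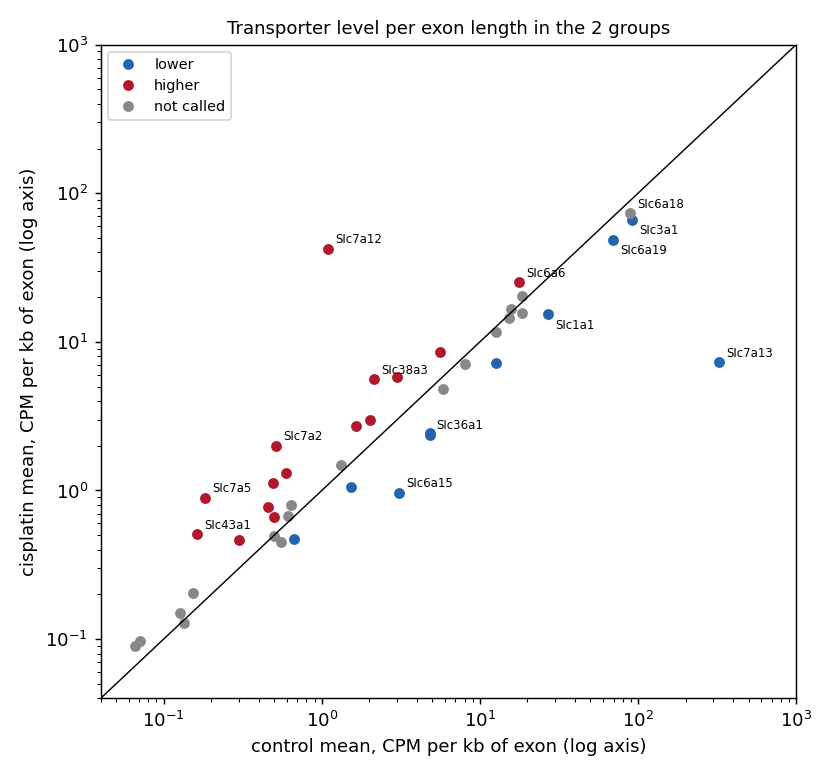
Mean level per kilobase of exon in control (horizontal, log axis) and cisplatin kidneys (vertical, log axis) for the tested transporters other than Slc7a15, coloured by their edgeR call, with the line of equal levels. Most transporters lie near the line, Slc7a13 lies far below it (324 against 7.32 CPM per kilobase) and Slc7a12 far above it (1.10 against 42.3).

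The other genes of the pathway mostly fell, and over all tested genes 22.8% were lower and 24.5% higher. Of 13 tested partners and other carriers outside these families, 9 were lower and 1 higher, with a median log2 fold change of -0.58. Slc6a20b, an imino acid carrier (-1.74), the scaffold Pdzk1 (-1.23), Cltrn and the aromatic amino acid uniporter Slc16a10 (-0.67) had the smallest adjusted p among the falls, and Mfsd12, a lysosomal cysteine carrier, was the rise (0.61). Of 11 tested peptidases that release amino acids from peptides, 9 were lower and none higher (median log2 fold change -1.34), with Ggt1 (-2.03), Cndp2 (-2.81), Mep1b (-2.65) and Anpep (-1.35) in front. With library totals the partners held 3 lower and 2 higher genes and the peptidases 8 lower and 2 higher. The collecting duct markers, which belong to another part of the tubule, were higher in 5 of 7 (Scnn1b, Aqp2, Scnn1g and Aqp3 first, summed level 218 to 238 CPM in control and 303 to 367 CPM after cisplatin). The markers of the thick ascending limb and distal tubule held 3 lower (Slc12a3, Umod and Trpm6) and 2 higher (Cldn16 and Slc12a1) among 6, and the endothelial markers 2 lower (Kdr and Emcn) and none higher among 6.

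Over all called genes, the cisplatin libraries were not nearest to control equally often, and a weaker response of single mice was not tested. Among the 16 transporters that rose, the third cisplatin library was the nearest to control in 11, and in 49.9% of all genes called higher. Among the 10 that fell it was the nearest in 4, against 57.7% of all genes called lower. That library also had the fewest counted pairs, 21891855, and the lowest TMM factor of the treated group, 1.05.

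The 17 members that were not tested were rare or absent in these kidneys. For 6 of them, Slc38a5, Slc36a3 and Slc7a14 among them, no count was found in any library. The others had at most 28 counts in a library, and 16 of the 17 stayed under 10 in every library. Apart from Slc7a11 and Slc7a3, these were the glutamate carriers Slc1a6 and Slc1a7, Slc7a10, Slc38a8, Slc6a16 and the transmitter carriers Slc6a2, Slc6a3, Slc6a5 and Slc6a7, with at most 3 counts in any library. At this depth their absence from the kidney cannot be told from a very low level.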

How the data were processed

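Total RNA of 6 mouse kidneys was sequenced as stranded paired-end libraries (QIAseq Stranded kit), 1 per mouse. The authors trimmed read pairs with Cutadapt, aligned them to mm39 with STAR and deposited the raw counts per gene and strand that STAR reports, without normalization. The aligner settings and the gene annotation behind the counts were not given in the sources used here. Counts on the transcript strand were used (96.7% to 97.2% of the stranded counts), so genes that overlap on the opposite strand were kept apart. Pairs outside annotated exons made up 4.63% to 4.86% of the pairs in control and 6.09% to 9.32% in cisplatin libraries and stayed out of library sizes. STAR's gene counts leave out pairs that map to several places (11.5% to 12.9%), which can lower the count of near-identical genes.

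Gene symbols, coordinates (GRCm39) and exon lengths came from GENCODE vM39, and promoters from RefSeq tables of GRCm38.p6, which were not mixed. Genes were filtered with filterByExpr (minimum count 10, minimum total 15), scaled with TMM factors and tested with the quasi-likelihood F test of edgeR 4.0.16, and p-values were adjusted by the Benjamini-Hochberg method over all 15662 tested genes at a threshold of 0.05. Library size times TMM factor was the divisor of CPM. The biological coefficient of variation was 11.0%. Ratios within a library were compared by two-sided exact permutation tests. P-values measure the spread between these mice only.

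The members and the lists of partners, peptidases, starvation response genes and markers were chosen with earlier results of these data known, so their counts are descriptions. Values per library are given for called members with an absolute log2 fold change of at least 1 and a mean of at least 1 CPM, and for 14 members of known renal or clinical interest whatever their result. From each list, up to 4 genes per direction with the smallest adjusted p were named. Lrp2, Aqp1, Slc5a12, the lymphocyte markers, Asns, Sesn2, Nupr1, Cebpb, Chac1 and the starvation response genes that were not called were named outside this rule. Not every member without counts is named here.

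As alternatives, the libraries were scaled by their totals, by upper quartiles or by DESeq2 size factors, DESeq2 1.42.0 replaced edgeR, the filter was dropped or set to 10 counts in each library, both strands were counted, the replicate number was added as a block, and each library was left out in turn. The work used R 4.3.3, limma 3.58.1, matplotlib 3.10.9, scipy 1.17.1, numpy 2.4.6, pandas 2.3.3 and Python 3.11.15.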

Additional observations from a re-analysis of the deposited data

Results flagged for a closer look

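Slc43a1, a uniporter that rose after cisplatin, also had counts on the strand opposite to its transcript, which the comparisons did not use. They came to a mean of 0.551 CPM after cisplatin (13 to 16 counts per library) and 0.136 CPM in control kidneys (1 to 4 counts per library). The opposite strand held 14.8% of the stranded counts of this gene. In the annotation used here no gene on that strand shares exon bases with Slc43a1, and genes that overlap only its introns were not searched. The source of these counts was not tested.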

How the results depend on the processing

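Of 44 tested transporters, 20 kept their direction and their side of the threshold under every alternative that gave them a value, among them 19 of the 26 called ones, and no called transporter changed direction. There were 14 alternatives, of which 13 gave a value for Slc36a2 and for Slc6a14, and 12 for Slc7a15. Scaling to library totals moved most: it gave 6 lower transporters in place of 10, 1375 lower and 8508 higher genes in all, 3 lower and 2 higher partners, 2 higher peptidases and 0 lower starvation response genes. Relative to the median of all genes under that scaling (0.48), the lost calls Slc3a1, Slc6a19, Slc6a9 and Slc38a9 stood at -0.53, -0.58, -0.59 and -0.54. Leaving out 1 library at a time gave 9 to 13 lower and 13 to 17 higher transporters and 1 to 2 lower starvation response genes, with 1 without control replicate 3 or cisplatin replicate 2. The replicate number as a block gave 11 lower and 16 higher transporters. Deviations of same-numbered libraries correlated at 0.133, 0.142 and 0.0997, so the numbers were not taken as pairs, although each library correlated best with its own number, a hint from the data and not from the design. DESeq2 gave 11 lower and 15 higher, and no filter gave 12 and 18 among 55 tested.

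Transporters not called with TMM factors changed sign as follows (log2 fold change). With library totals Slc1a2 stood at 0.43, Slc38a10 at 0.33, Slc38a4 at 0.12, Slc43a2 at 0.28, Slc6a14 at 0.35, Slc6a18 at 0.15, Slc6a8 at 0.31, Slc7a8 at 0.16 and Slc7a9 at 0.18. With upper-quartile factors Slc1a2 stood at 0.076 and Slc6a14 at 0.017, and with at least 10 counts in every library Slc1a2 at 0.019. Leaving out 1 library gave -0.12 to 0.072 for Slc1a2, -0.35 to 0.0096 for Slc43a2, -0.56 to 0.34 for Slc6a14 and -0.016 to 0.29 for Slc6a17. The cause was not tested. Depth limits the members with few counts, most of which were left out by the count filter.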
